A study of Mus musculus with 6 samples.

Results

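The 7 genes described here, Ccne1, Ccne2, Ccna2, Cdk2, Cdc25a, Skp2 and Cks1b, encode the E- and A-type cyclins, the kinase they activate, a phosphatase that switches that kinase on, and the Skp2-Cks1 pair of a ubiquitin ligase. They were taken by symbol from a table of raw counts for 55401 mouse Ensembl genes, and all 7 had enough counts to be tested, among 14661 genes tested in all. The cells were ADC106, a mouse angiosarcoma line (angiosarcoma is a malignant tumour of vessel-lining cells). Control cells, labelled wild type, received an NC mimic at 12.5 nM, and the other cells, labelled as overexpressing miR-497, received an miR-497 mimic at the same dose. A mimic is a short synthetic RNA duplex that loads Argonaute with a chosen microRNA strand. RNA was taken on day 3 after transfection, and each of the 2 groups had 3 libraries of poly(A)-enriched RNA. All cells were of 1 line, and no untransfected cells were analysed here. Nothing in the labels says whether the libraries of a group came from separate cultures, so the p-values measure the spread between these libraries, which may be technical.

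Entry into S phase, the part of the cell cycle in which DNA is copied, depends on Cdk2. Cyclin E, made from the paralogs Ccne1 and Ccne2, binds Cdk2 late in G1, and cyclin A2 takes its place once replication is under way. Cdc25a removes the inhibitory phosphates from Cdk2. Skp2, a receptor of the SCF ubiquitin ligase, works with Cks1b to mark the Cdk inhibitor p27, the product of Cdkn1b, for destruction. A microRNA pairs with sites in a transcript through its seed, bases 2 to 8, and the paired transcript is repressed and usually degraded. The study asked which transcripts respond to miR-497.

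The sequence of the mimic is not given in the labels, so the seed was read from the mature mouse miR-497a-5p in RefSeq's GRCm38.p6 records. It is shown with relatives that carry the same seed, and with miR-497b, which is read from the other strand of the same locus and has another seed. Capitals mark bases 2 to 8, and each sequence runs 5′ to 3′.
miR-497a-5p: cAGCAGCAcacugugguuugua
miR-195a-5p: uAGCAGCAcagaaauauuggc
miR-16-5p: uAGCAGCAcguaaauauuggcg
miR-15a-5p: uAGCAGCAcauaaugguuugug
miR-15b-5p: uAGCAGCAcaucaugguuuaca
miR-497b: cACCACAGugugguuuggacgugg

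A site was counted in a 3′ UTR when the transcript strand held TGCTGCT (a 7mer-m8), GCTGCTA (a 7mer-A1) or both together, TGCTGCTA (an 8mer). The 6mer GCTGCT that these share was noted separately and did not count. In the longest annotated 3′ UTR of each gene, 2 of the 7 genes held a site, Ccne1 and Cdc25a, each with 2 sites of which 1 was an 8mer. Among 12859 tested genes with a 3′ UTR, 28.1% held at least 1 site, 8.98% held 2 or more and 4.61% held an 8mer. The stretches that hold the 4 sites are shown as 30 bases of the transcript strand each, with the site in capitals.
Ccne1 7mer-A1: accactgagtgctccagaaGCTGCTAagga
Ccne1 8mer: gaactcttattttgtaagTGCTGCTAtgtc
Cdc25a 7mer-m8: gagagaaaagccgcccaagTGCTGCTggcc
Cdc25a 8mer: ggcgctgcagaccagtatTGCTGCTActca

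In the GRCm38 build, the Ccne1 sites lie at chr7:38098268-38098274 and chr7:38098023-38098030 on the minus strand. They cover bases 241 to 247 and 485 to 492 of a 3′ UTR of 531 bases, and the 8mer ends 39 bases before the annotated end of the transcript. In the 30 bases on each side, A and T made up 73.3% around the Ccne1 8mer and 45.0% around its 7mer-A1. The Cdc25a sites lie at chr9:109892565-109892571 and chr9:109892870-109892877 on the plus strand, in a 3′ UTR of 1676 bases, with 45.0% and 46.7% A and T around them. Sites were thus more closely packed in Ccne1, at 3.77 per kilobase of 3′ UTR, than in Cdc25a, at 1.19 per kilobase. Beside its counted sites, Cdc25a held 2 of the 6mers, and Ccne1 held none. Skp2, with a 3′ UTR of 4872 bases, held 2 of the 6mers and no counted site. Ccne2, Ccna2, Cdk2 and Cks1b held neither, in 3′ UTRs of 1681, 1369, 1167 and 439 bases.

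Coding sequences were searched in the same way. Ccna2 was the one gene of the 7 with a counted site there, and it had 2 in a row, a 7mer-A1 at bases 745 to 751 and an 8mer at bases 752 to 759 of a coding sequence of 1269 bases. A counted site in the coding sequence was present in 39.9% of 12945 tested genes, so a match of this kind is common. The stretch of Ccna2 that ends just after the 8mer is shown with the 8mer in capitals.
Ccna2 coding 8mer: ttgtaggcacggctgctaTGCTGCTAgctt

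Libraries held 25777676 to 36159499 counts. Mitochondrially encoded genes took 2.03 to 2.15% of the counts in NC libraries and 2.94 to 3.77% in miR-497 libraries, and the part of this difference in the results was not tested. All 10 endothelial markers on a fixed list were expressed, at a summed 9418 to 10108 CPM (counts scaled to the library size after TMM normalization) in NC and 9214 to 9682 CPM in miR-497 libraries. Of these, 7 were higher and 2 lower with miR-497 (edgeR quasi-likelihood test with Benjamini-Hochberg adjustment over all genes tested; threshold 0.05). By the same rule 23.8% of all tested genes were higher and 26% were lower. Lists of 4 markers each for fibroblasts, leukocytes and epithelial cells summed to 103 to 109, 8.68 to 9.53 and 0.573 to 0.888 CPM with NC, and to 146 to 168, 15.1 to 19.9 and 0.656 to 1.47 CPM with miR-497. In each of these lists 2 of 4 markers could be tested, and Col1a1 and Cd68 were higher. Lum and Cd3e were listed at 0 in all libraries, Ptprc had means of 0.156 CPM with NC and 0.185 CPM with miR-497, and the part of such cells in the results was not tested.

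Of the 7 genes, 6 had lower expression with miR-497 and none was higher by this test, against 26% lower and 23.8% higher among all tested genes. The 7 genes had a median log2 fold change of -0.44, against -0.02 for all tested genes. The miR-497 values lay below all NC values for the same 6 genes, a pattern found for 29.6% of tested genes. Fold changes are miR-497 over NC throughout. RNA from whole cultures cannot tell fewer cells in a cell cycle phase from less of a transcript per cell.

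**Figure D1:**
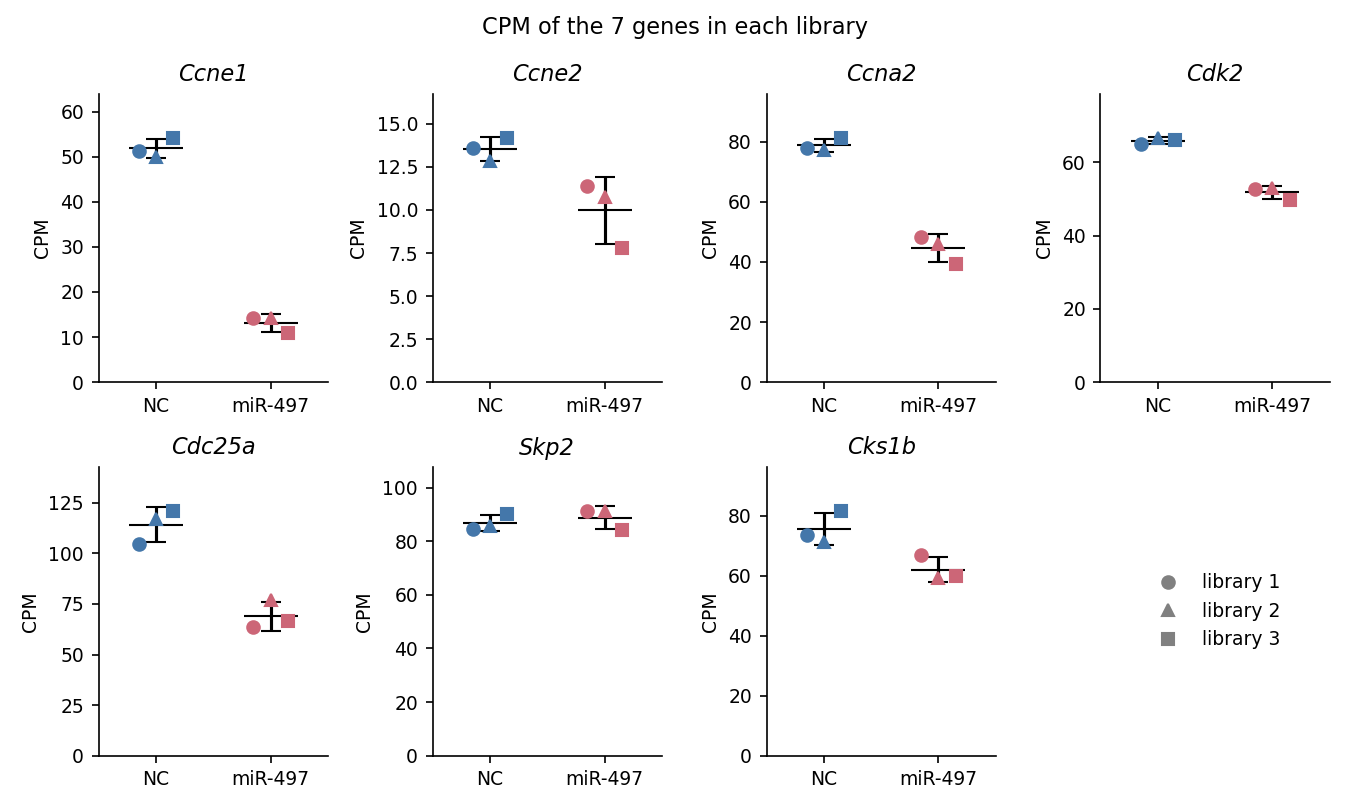
CPM (vertical axes, each from 0) of the 7 genes in NC (blue) and miR-497 (red) libraries; marker shapes give the library number, long bars the mean and whiskers the SD of 3 libraries. The groups overlap for Skp2 only, and the widest gap is that of Ccne1, from a mean of 51.8 to 13.1 CPM.

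Cyclin E1, from Ccne1 (ENSMUSG00000002068, chr7:38097984-38107534, minus strand), changed most. Its level was 51.3, 49.9 and 54.2 CPM in the NC libraries and 14.2, 14.3 and 10.8 CPM in the miR-497 libraries, from counts of 330 to 1823 per library. No value of one group came near the other group. Ccne1 fell 3.96-fold, to 25.3% of the NC level (log2 fold change -1.99, SE 0.0953, edgeR adjusted p = 6e-11). At least a 2-fold fall with an adjusted p under 0.05 was found for 5.19% of tested genes, and of the 7 genes for Ccne1 alone. Among all 14661 tested genes the fall ranked 174 from the lowest. At or below a log2 fold change of -1.9 lay 1.08% of genes with a counted 3′ UTR site and 1.22% of those without. The fall ranked 37 from the lowest among the 3617 tested genes with a counted 3′ UTR site, whose median log2 fold change was -0.17. It ranked 1 among the 150 genes that, like Ccne1 and Cdc25a, had exactly 2 sites of which 1 was an 8mer. These 150 genes had a median of -0.33, and 52.7% of them were lower.

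Cyclin E2, from Ccne2 (ENSMUSG00000028212, chr4:11191351-11204779, plus strand), is the other E-type cyclin. No counted site was found in the 3′ UTR or the coding sequence of Ccne2. Ccne2 had 13.6, 12.8 and 14.2 CPM with NC and 11.4, 10.7 and 7.78 CPM with miR-497, from 237 to 469 counts per library. The 3 miR-497 values lay below the NC values, and 1 of them, that of library 3, was well below the other two. Ccne2 fell 1.36-fold (log2 fold change -0.44, SE 0.135, edgeR adjusted p = 0.011). Without miR-497 library 3 the change was -0.29 and did not pass the threshold (edgeR adjusted p = 0.0558). Exons of Ints8 on the opposite strand cover 17.4% of Ccne2 exon bases. Since the strand setting of the counting was not stated, reads of the pair cannot be told apart there; Ints8 itself fell by 0.33 on the log2 scale.

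Whether the 2 E-type cyclins responded differently was tested as a ratio within each library. The ratio of Ccne1 to Ccne2 CPM was 3.77, 3.89 and 3.82 with NC and 1.24, 1.33 and 1.39 with miR-497. These ratios are not corrected for transcript length, which cancels when the groups are compared. The ratio was lower in every miR-497 library than in any NC library, with a difference of -1.53 in the mean log2 ratio. The exact 2-sided permutation p was 0.1, the smallest that 3 against 3 can give, and 0.1 after Benjamini-Hochberg adjustment over the 4 ratios tested, so this design cannot pass 0.05. Per kilobase of annotated exon, Ccne1 made up 83.4% ± 0.214 of the 2 E-type cyclin transcripts with NC and 63.4% ± 1.35 with miR-497 (SD, n = 3). Their summed level went from 23.3 ± 1.02 to 7.77 ± 1.28 CPM per kilobase (SD, n = 3).

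Cyclin A2, from Ccna2 (ENSMUSG00000027715, chr3:36564865-36572150, minus strand), partners Cdk2 in S phase and Cdk1 later. It stood at 77.7, 77.3 and 81.3 CPM with NC and at 48.3, 46.1 and 39.4 CPM with miR-497. The groups were far apart relative to their spread, and library 3 was again the lowest of the miR-497 libraries. Ccna2 fell 1.77-fold (log2 fold change -0.82, SE 0.0746, edgeR adjusted p = 1.1e-07), the second largest fall of the 7 genes, without a counted site in its 3′ UTR. Exosc9 on the opposite strand covers 12.5% of Ccna2 exon bases and fell by 0.24 on the log2 scale.

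The kinase gene Cdk2 (ENSMUSG00000025358, chr10:128697939-128705031, minus strand) had 65.0, 66.8 and 66.1 CPM with NC and 52.7, 53.0 and 49.9 CPM with miR-497. Both groups were tight and did not overlap. The fall was 1.27-fold (log2 fold change -0.35, SE 0.0619, edgeR adjusted p = 0.00017). The estimates for Ccne1 and Ccna2 were larger falls than that of the kinase, and ratios within each library compared them. The log2 ratio of Ccne1 to Cdk2 moved by -1.65, from -0.35 ± 0.0676 with NC to -1.997 ± 0.179 with miR-497 (SD, n = 3; exact permutation p = 0.1, adjusted 0.1). The log2 ratio of Ccna2 to Cdk2 moved by -0.48, from 0.26 ± 0.0442 to -0.22 ± 0.108 (SD, n = 3; exact permutation p = 0.1, adjusted 0.1). Both ratios were lower in every miR-497 library than in any NC library.

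**Figure D2:**
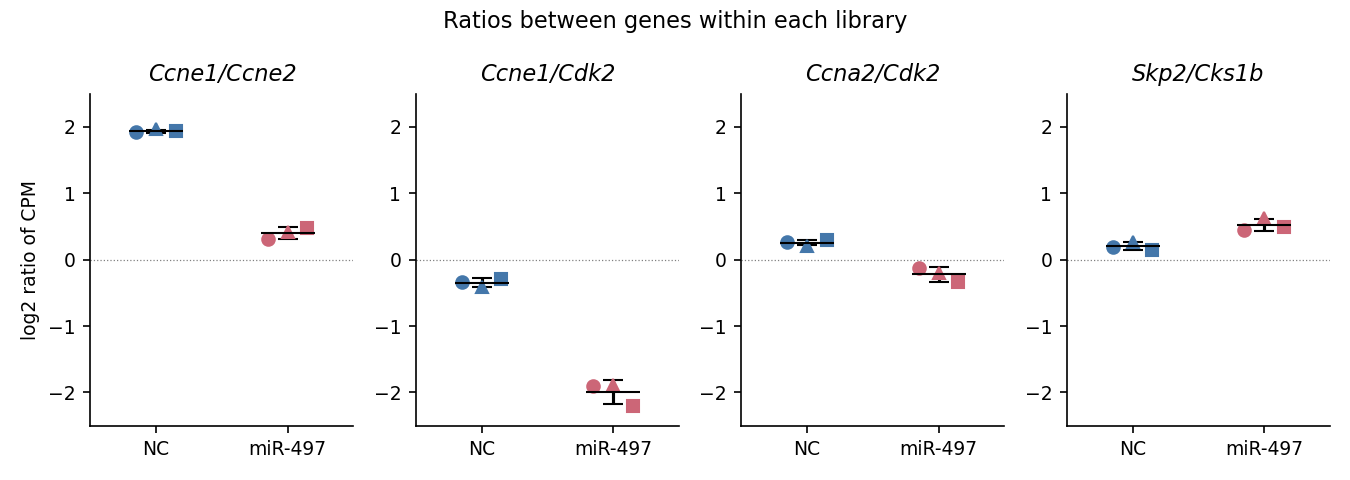
Log2 ratio of CPM between 2 genes in each library (vertical axes), in NC (blue) and miR-497 (red) libraries; long bars give the mean and whiskers the SD of 3 libraries, and the dotted line marks equal CPM. The 3 ratios with a cyclin are lower and that of Skp2 to Cks1b is higher in all miR-497 libraries.

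The phosphatase gene Cdc25a (ENSMUSG00000032477, chr9:109875579-109893895, plus strand) had 105, 117 and 121 CPM with NC and 63.5, 76.9 and 66.3 CPM with miR-497. Each group spread more than for Cdk2, but the groups did not overlap. Cdc25a fell 1.66-fold (log2 fold change -0.73, SE 0.0746, edgeR adjusted p = 4.5e-07). Among the same 150 genes with exactly 2 sites of which 1 was an 8mer it ranked 34 from the lowest. The other site is a 7mer-m8 in Cdc25a and a 7mer-A1 in Ccne1. The shortest annotated 3′ UTR of Cdc25a has 2 bases and no site, whereas the shortest of Ccne1 has the same 531 bases with both sites.

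Skp2 (ENSMUSG00000054115, chr15:9111985-9155425, minus strand) was the exception. It had 84.5, 85.5 and 90.3 CPM with NC and 91.2, 91.2 and 84.0 CPM with miR-497, so the NC range lay inside the miR-497 range. The estimate for miR-497 over NC was 0.03 on the log2 scale, with an SE of 0.0585 and a 95% interval from -0.09 to 0.16, and it did not pass the test (edgeR adjusted p = 0.66). The interval does not reach the fall of Cdk2, yet it does not show that Skp2 was unchanged. With counts of 2293 to 3122 per library, depth was not limiting. Cks1b (ENSMUSG00000028044, chr3:89415472-89418383, minus strand), the accessory subunit that Skp2 needs to recognise p27, had 73.8, 71.3 and 81.6 CPM with NC and 66.8, 59.4 and 59.8 CPM with miR-497. Its fall was 1.22-fold (log2 fold change -0.29, SE 0.0700, edgeR adjusted p = 0.0026), the smallest of the 6. Annotated copies of Cks1b with at least 90% identity, among them Cks1brt, had at most 5 counts in any library. The treatment of multiply aligned reads is not known, so these counts do not show how reads shared with the copies were counted. The log2 ratio of Skp2 to Cks1b was 0.20 ± 0.0585 with NC and 0.52 ± 0.0886 with miR-497 (SD, n = 3; exact permutation p = 0.1, adjusted 0.1), and every miR-497 library lay above every NC library.

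To order the levels of the 7 genes, CPM was divided by length, first by kilobases of annotated exon. With NC, Cks1b was highest at 67.1 CPM per kilobase and Ccne2 lowest at 3.88. Ccne1 and Ccna2, at 19.5 and 19.3 CPM per kilobase, did not differ beyond their spread, Cdc25a stood at 14.2, and Skp2 and Cdk2, at 11.0 and 10.6, overlapped. With miR-497, Ccne1 was at 4.92 CPM per kilobase, next to Ccne2 at 2.85, while Ccna2 at 10.9 and Skp2 at 11.3 overlapped, as did Cdc25a at 8.59 and Cdk2 at 8.34. Cks1b stayed highest at 55.1. The middle of this order depends on the length used. A second length, chosen after the data were seen, was that of the coding transcript with the longest 3′ UTR. By it, Cdc25a and Cdk2 stood at 31.4 and 29.4 CPM per kilobase with NC, above Ccna2 at 26.6 and Ccne1 at 25.9. Cks1b and Ccne2 were still highest and lowest.

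The partners and regulators of Cdk2 were then counted. The list has 14 genes, and 12 passed the count filter, with 7 lower, 1 higher and a median log2 fold change of -0.25. Over all tested genes 26% were lower and 23.8% higher, with a median of -0.02. Cdk1, the mitotic kinase that also binds cyclin A2, had 188 ± 2.08 CPM with NC and 103 ± 9.37 CPM with miR-497 (SD, n = 3; -0.86 on the log2 scale, edgeR adjusted p = 5.7e-09), and its 3′ UTR held 4 sites. The other Cdc25 phosphatases fell too, Cdc25c by 0.91 and Cdc25b by 0.26 on the log2 scale. So did Pkmyt1, a kinase that opposes them by adding inhibitory phosphates to Cdk1 (-0.76), and Cks2, the paralog of Cks1b (-0.61). Cdc25b held 1 counted 3′ UTR site, and Cdc25c, Pkmyt1 and Cks2 held none. Cdkn1a and Cables1 held 1 each and were not called. The Cdk-activating kinase has 3 subunits, and these did not move together: Mnat1 fell by 0.39, Ccnh rose by 0.37 (edgeR adjusted p = 0.00024) and Cdk7 had a log2 fold change of 0.04 (edgeR adjusted p = 0.71). Wee1, a kinase that opposes Cdc25, and Ccna1, the other A-type cyclin, were listed at 0 in all libraries. Several genes that dividing cells use are at 0 in this table for a cause that is not known, so a 0 is not read as absent expression.

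Transcripts of proteins that Skp2 marks for destruction were counted next. Of 4 tested, 1 was lower and none higher, a share of lower genes near the 26% over all tested genes. The called one was Cdkn1b, at 71.7 ± 2.34 CPM with NC and 60.7 ± 1.67 CPM with miR-497 (SD, n = 3; -0.24 on the log2 scale, edgeR adjusted p = 0.0032). Cdkn1a, which encodes p21, went from 263 ± 17.2 to 284 ± 5.56 CPM (SD, n = 3; 0.11, edgeR adjusted p = 0.11), and it passed the threshold with upper quartile scaling, at 0.16 (edgeR adjusted p = 0.0157). Cdkn1c and the pocket protein gene Rbl2 had log2 fold changes of 0.03 and -0.16 and were not called. These are transcript levels, and the turnover that Skp2 controls acts on the proteins.

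The ligase list held 11 genes, of ubiquitin ligases around cyclin E and Skp2 and of factors that work with or oppose ligases. Of these ligase genes, as they are called here, 10 were tested, 5 were lower and 2 higher, and the median log2 fold change was -0.20. Over all tested genes 26% were lower and 23.8% higher, so the share of higher ligase genes was near that of all genes. The higher ones were Cul1, the scaffold of the SCF ligase, at 133 ± 2.59 CPM with NC and 186 ± 14.5 CPM with miR-497 (SD, n = 3; 0.49 on the log2 scale, edgeR adjusted p = 2.9e-06), and its RING subunit Rbx1 (0.41, edgeR adjusted p = 2.2e-05). The adaptor Skp1 had -0.08 and was not called. Cdc34, a ubiquitin-conjugating enzyme that serves SCF ligases, fell by 0.97, from 212 ± 8.81 to 108 ± 5.55 CPM (SD, n = 3; edgeR adjusted p = 4.9e-10). Fbxo5, an inhibitor of the anaphase-promoting complex, fell by 0.78, the F-box gene Btrc by 0.74 and the deubiquitinase gene Usp28 by 0.52. Fbxw7, the F-box receptor for cyclin E, was listed at 0 in all libraries, which likewise gives no measure of its expression.

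**Figure D3:**
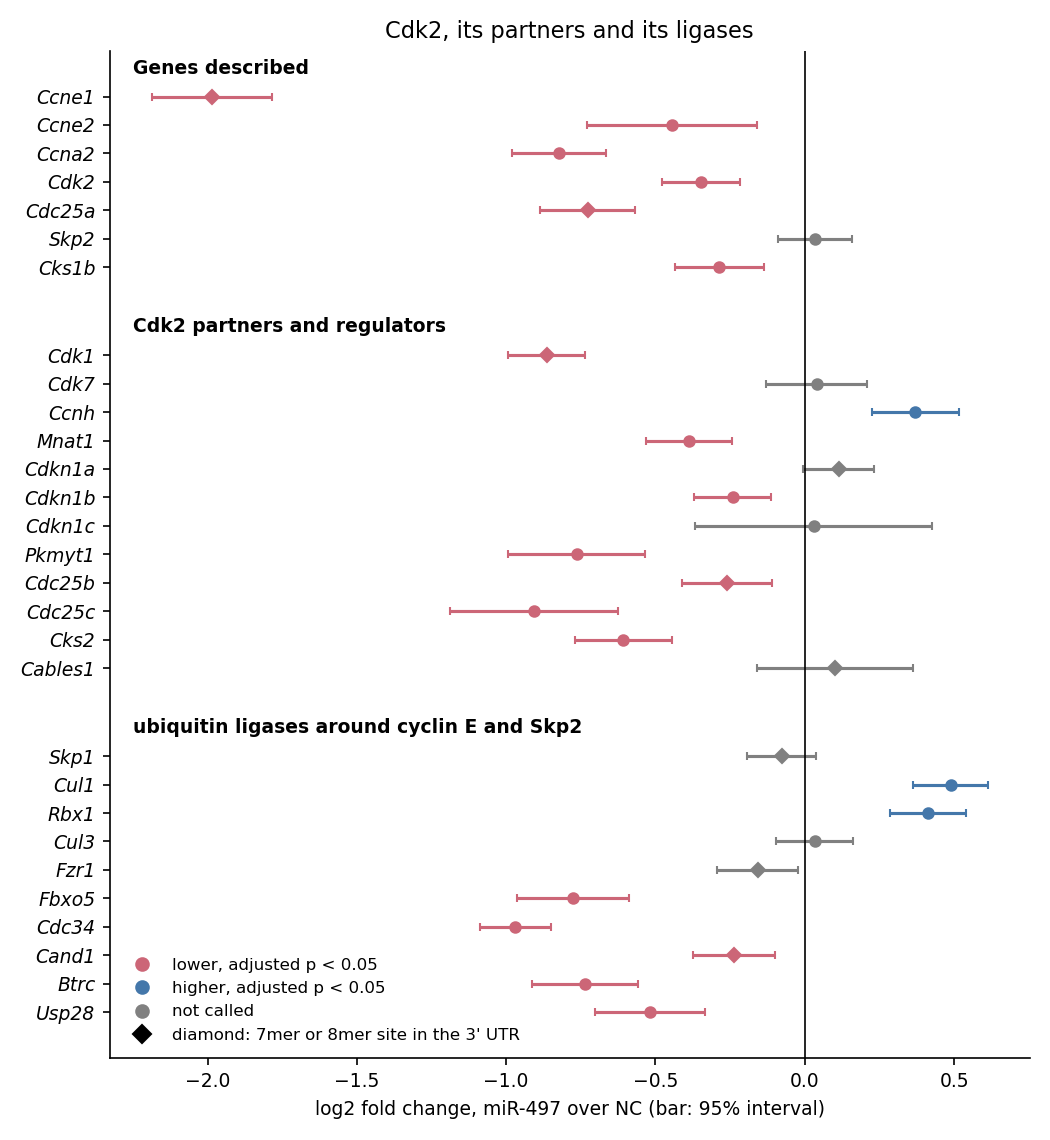
Log2 fold change, miR-497 over NC (horizontal axis), with 95% intervals for the 7 genes, the tested partners and regulators of Cdk2, and the tested ligase genes; red marks lower, blue higher and grey not called at an adjusted p of 0.05, and diamonds mark genes with a 7mer or 8mer in the 3′ UTR. Ccne1, at -1.99, lies apart from the rest, and the genes called higher are Cul1, Rbx1 and Ccnh.

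Genes that act downstream of Cdk2 were lower in most cases, against 26% lower and 23.8% higher over all tested genes. Of 20 listed genes of origin licensing and firing, 18 could be tested: 14 were lower and 1 higher, and they had a median log2 fold change of -0.58. Over the alternatives 12 to 14 were lower, with Mcm7 (-0.14) losing its call in most of them and Gmnn (-0.21) in 3. The largest falls were those of Cdc7 (-1.09), the kinase that starts origins, the firing factor Ticrr (-0.97), itself a Cdk2 substrate, and Gins1 (-0.80), a subunit of the replicative helicase. Mcm6 was the higher one, from 261 ± 2.22 to 291 ± 15.8 CPM (SD, n = 3; 0.16, edgeR adjusted p = 0.023). Its call was lost without NC library 1 or 2 or miR-497 library 1 or 2, at edgeR adjusted p-values of 0.0714, 0.0811, 0.1003 and 0.0539. Of 11 listed S phase synthesis genes 10 were tested and 9 were lower, with a median of -0.54. These were led by Rrm2 (-0.73), the ribonucleotide reductase subunit, the polymerase gene Pola1 (-0.68) and the thymidylate synthase gene Tyms (-0.58). Npat, a cyclin E-Cdk2 substrate that drives histone genes, had 0.16 and was not called (edgeR adjusted p = 0.063). Cdt1, Gins2 and Tk1 were listed at 0 in all libraries, and as said of Wee1 these zeros are no measure of expression.

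Genes of the later G2 and M phases were lower, as were 6 of the 7 genes. All 10 on the list passed the test, against 26% lower over all tested genes. They had a median log2 fold change of -0.77, led by the mitotic kinase genes Aurka (-1.27), Plk1 (-1.15) and Bub1 (-1.002). Their summed level was 1452 to 1581 CPM in NC libraries and 884, 963 and 732 CPM in miR-497 libraries 1 to 3. Library 3, the lowest, was also the lowest miR-497 library for Ccne1, Ccne2, Ccna2, Cdk2 and Skp2, but not for Cdc25a or Cks1b. The part of cell cycle phase in the levels of the 7 genes was not tested.

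**Figure D4:**
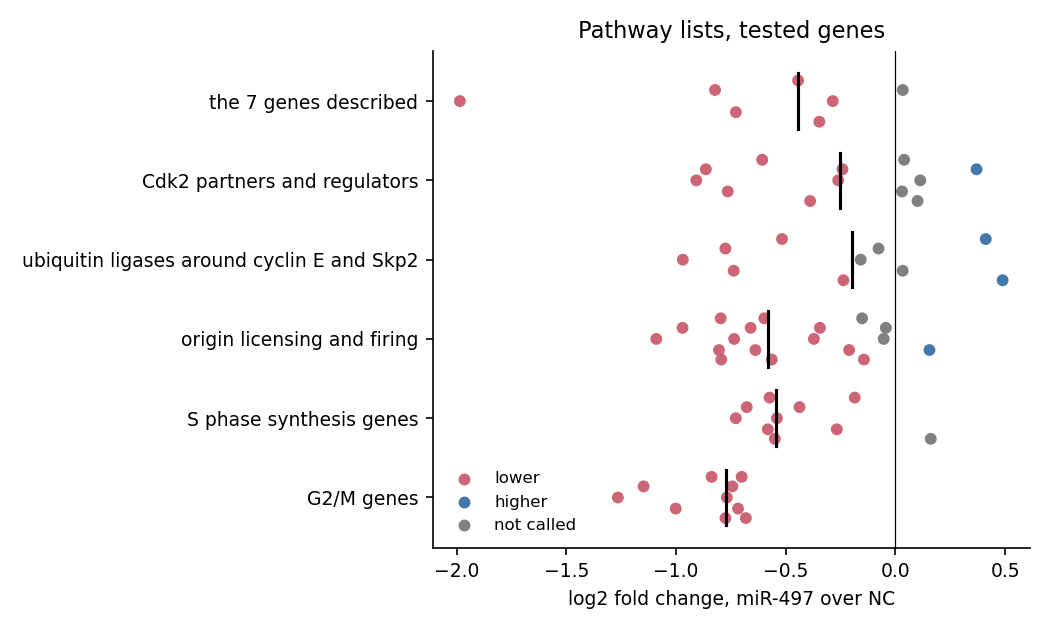
Log2 fold change, miR-497 over NC (horizontal axis), of each tested gene in the 7 described and in 5 pathway lists; red marks lower, blue higher and grey not called at an adjusted p of 0.05, and black bars give the medians. The medians run from -0.20 for ligase genes to -0.77 for G2/M genes, and every list but G2/M holds genes on both sides of 0.

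Counted 3′ UTR sites were held by 4 of 12 tested Cdk2 partners and regulators, 3 of 10 ligase genes, 3 of 18 licensing and firing genes, 1 of 10 synthesis genes and 1 of 10 G2/M genes. For comparison, the share over all tested genes with a 3′ UTR was 28.1%. The 9242 tested genes with a 3′ UTR and no counted site had a median log2 fold change of 0.02.

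**Figure D5:**
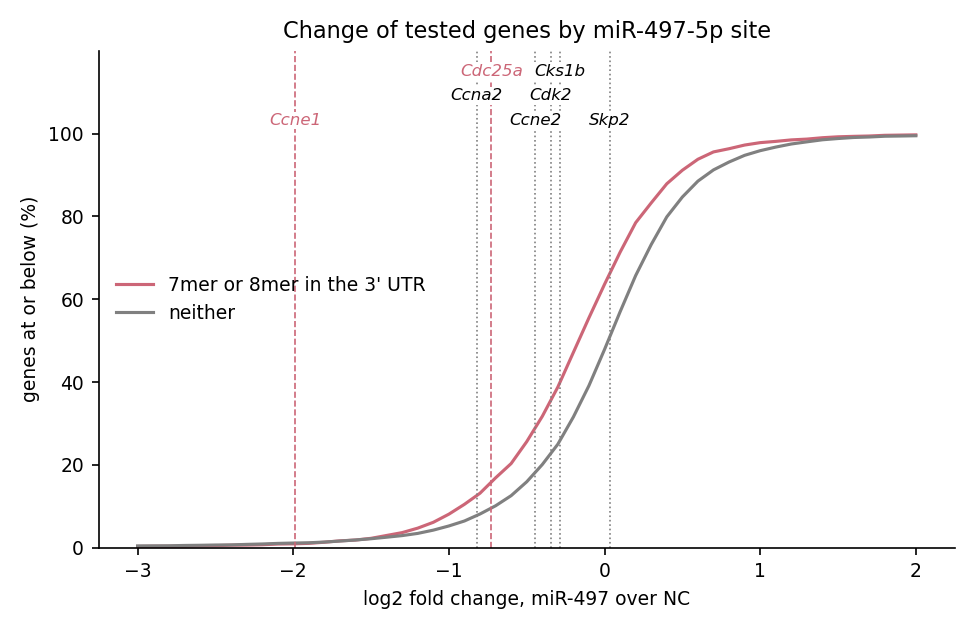
Cumulative share of tested genes (vertical axis, percent) at or below a log2 fold change, miR-497 over NC (horizontal axis), for 3617 genes with a 7mer or 8mer in the 3′ UTR (red) and 9242 without (grey); vertical lines mark the 7 genes, dashed red where the gene holds a site. Ccne1 lies in the far left tail of both curves, and Skp2 near the median of genes without a site.

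The genes with the most similar pattern were found by the root mean square distance over the 6 libraries between log2 CPM values centred on the NC mean, among 10333 other tested genes with a mean log2 CPM of at least 2. Nearest to Ccne1 were Hsd17b7, Ccnd3 and Parp12, at distances of 0.105, 0.108 and 0.123. Hsd17b7 and Ccnd3, a D-type cyclin gene, held 4 and 2 counted 3′ UTR sites, and Parp12 held none. Nearest to Ccna2 were Ncapg, a condensin subunit gene of mitotic chromosomes, Kpna3 and Lrrc32, at 0.0245, 0.0322 and 0.0369. Ncapg held no site, Kpna3 held 1 and Lrrc32 held 2, although Ccna2 itself has none in its 3′ UTR. Ccne2 was nearest to Tfam, Thy1 and Gm4737, at 0.0621, 0.0664 and 0.0717, and Skp2 to U2surp, Cbx3 and Selenon, at 0.0185, 0.0192 and 0.0204. Of these 6 genes U2surp held 1 site and the others none. With 2 groups of 3 libraries, such a distance mostly reflects the size of the group difference.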

How the data were processed

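The authors deposited raw counts of reads per Ensembl gene, not normalized. STAR 2.5.4b, featureCounts, Subread 1.6.1, edgeR 3.32.1 and the build GRCm38 are named in the submitters' processing notes, without roles. The annotation release, the strand setting and the treatment of multiply aligned reads are not given in the sources used here. Symbols, positions and transcripts came from GENCODE M21 (GRCm38), which matched 55141 of 55401 identifiers.

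From these counts, all genes were tested with edgeR 4.0.16 in R 4.3.3: filterByExpr (minimum count 10, minimum total 15), TMM, quasi-likelihood F-test on the group, Benjamini-Hochberg adjustment, threshold 0.05, 2-sided. The standard error was the log2 fold change divided by the square root of F. The script was tested on simulated data. The biological coefficient of variation was 8.78%. CPM used TMM-scaled library sizes; log2 CPM for the pattern search used a prior count of 2.

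The genes, lists and tests were chosen with earlier results of these data known. Named genes were the 7, any gene of the Cdk2 regulator, ligase and Skp2 substrate lists, the 3 largest called falls and rises of the other pathway lists, and the 3 nearest patterns; others named (Npat, Mcm7, Gmnn, genes listed at 0, opposite-strand genes) were chosen after their values were seen. Alternatives were other scalings, filters and tools (DESeq2 1.42.0, limma 3.58.1 voom), a replicate block and leaving out each library.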

Additional observations from a re-analysis of the deposited data

How the results depend on the processing

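The 7 genes were refitted under 13 alternatives. Of the 91 resulting values, 90 had the reported sign and call; the exception was Ccne2 without miR-497 library 3, at -0.29. The count of lower genes was 6 of 7 under 7 other fits and 5 to 6 when single libraries were left out, and none was higher under any of them. Ccne1 ran from -2.06 to -1.86 and Skp2 from 0.0038 to 0.0797.

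The replicate numbers are shared between groups but not stated to pair libraries. Same-numbered deviations correlated at -0.12, -0.035 and -0.13, and 0 of 3 NC libraries correlated best with their own number. With the number as a block, 6 of the 7 genes were still lower, 3563 genes were lower and 3177 higher over all genes, and the count of higher licensing and firing genes went from 1 to 0. Over all 13 alternatives the lower counts were 7 for Cdk2 partners and regulators, 4 to 6 for ligase genes, 12 to 14 for licensing and firing genes, 8 to 9 for synthesis genes, 10 for G2/M genes and 1 for Skp2 substrates. Leaving out single libraries gave 0 to 1 for the higher licensing and firing count and 0 to 1 higher S phase synthesis genes. The latter count was 1 with DESeq2 size factors, upper quartile scaling, a mean count of at least 50 and the DESeq2 Wald test, against 0, and the gene was Npat each time. Upper quartile scaling gave 2 higher Cdk2 regulators and 1 higher Skp2 substrate, against 1 and 0, through Cdkn1a. The block cannot change the 4 log2 ratio differences, which were -1.53, -1.65, -0.48 and 0.32; over single libraries left out they ran from -1.57 to -1.49, -1.70 to -1.54, -0.53 to -0.42 and 0.27 to 0.35.

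With the shortest annotated 3′ UTR, 1 of the 7 genes held a site, since that of Cdc25a has 2 bases. With coding transcript lengths, a choice made after the data were seen, the Ccne1 share of E-type cyclin was 85.2% with NC and 66.5% with miR-497.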
